A study of Homo sapiens with 18 samples.

Results

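The genes described here are 47 human genes of the mitotic spindle, the kinetochore and the machinery that brings cells into and out of mitosis. They were listed by function, with earlier results of these data known. Each is represented by the probe set annotated to that gene alone that had the highest mean over the 18 arrays. The array holds 19775 genes with such a probe set, of which 14418 passed a filter on low signal, and all 47 mitosis genes passed it. They were ordered in 7 groups by role: 8 mitotic entry kinases and cyclins, 8 genes of the spindle checkpoint and of the anaphase-promoting complex (APC/C) axis, 4 subunits of the chromosomal passenger complex, 7 centromere and kinetochore proteins, 8 mitotic kinesins, 10 spindle assembly and cytokinesis proteins, and 2 proteins of the chromosome surface and of chromosome topology.

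The study measured gene expression in human osteosarcoma cells sorted from tumors that had been grown orthotopically in bone, and asked how cells that keep the membrane dye PKH26 differ from cells that have lost it. PKH26 is diluted as cells divide, so dye-retaining cells (High) have divided less often since labelling than dye-poor cells (Low). The labels call the High cells tumor-initiating cells and the Low cells bulk tumor cells, and describe all of them as carrying the fluorescent marker ZsGreen. There were 5 groups and no treatment. 143B High held 3 arrays, 1 from tumor 143B-1253 and the other 2 each from a pool named for a pair of tumors (51&52 and 54&55). 143B Low held 5 arrays, 1 for each of the tumors 143B-1251 to 143B-1255. MNNG lung held 2 arrays of lung metastases, 1 named for tumor MNNG-1233 and 1 named a mixture, neither labelled High or Low. MNNG High and MNNG Low held 4 arrays each, 1 of each from tumors MNNG-1231 and MNNG-1232 and from tumors MNNG-1233 and MNNG-1235, and values are given in this order. Both 143B and MNNG/HOS (here MNNG) are transformed derivatives of the HOS osteosarcoma line, and each is a single established line, so the tumors within a line are replicates of that line only.

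Signals are given on a log2 scale, and differences as log2 values ± the standard error that the fit gave. A gene was called at a Benjamini-Hochberg adjusted p under 0.05 over the 14418 genes, from limma fitted to all 18 arrays. Vimentin, a mesenchymal filament protein, had a mean signal of 14.3 to 14.6 in every group, and the bone-lineage genes RUNX2, COL1A1 and SPARC were above the filter value of 5.36 in all groups. The osteoblast genes SP7, ALPL and IBSP did not pass the filter, although their means in lung were above its value. The 2 lung arrays stood apart from all others, with an interquartile range of signal of 2.09 and 2.28 against 2.76 to 3.48 on the 16 bone arrays. Among the bone arrays, MNNG High had the narrowest spread, with an interquartile range of 2.76 to 3.18 against 3.29 to 3.40 on MNNG Low. 143B High and 143B Low were closer to each other, at 3.26 to 3.34 and 3.30 to 3.48.

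Mitosis is started by cyclin-dependent kinase 1 with its cyclins and by the Polo and Aurora kinases. Kinetochores, assembled on centromeres, tie chromosomes to spindle microtubules, and the spindle checkpoint holds back the APC/C until all chromosomes are attached. Kinesins and cross-linking proteins then pull the spindle apart and set up the cleavage of the cell, and most of these genes are transcribed in a wave in late G2 and M phase, so that their RNA is low in cells at rest. Many of them carry 2 promoter elements described for this wave, the cell cycle genes homology region with the core TTTGAA and the CCAAT box bound by NF-Y.

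Promoters of 4 members are printed because they show how these elements are arranged in genes that recur in the results. KIF4A and KIF20A are kinesins with lower signal in MNNG High, CDCA8 had 1 of the 4 smallest p in the difference between the lines, and EVI5 had the lowest High minus Low difference of all members in both lines. Each sequence is the 150 bases before the start of the gene, read 5′ to 3′ on the gene's strand, from RefSeq on GRCh38.p14. They lie at chrX:70289954-70290103 (KIF4A, plus strand), chr1:37692366-37692515 (CDCA8, plus strand), chr5:138178962-138179111 (KIF20A, plus strand) and chr1:92792411-92792560 (EVI5, minus strand), all directly upstream of the annotated start. Capitals mark TTTGAA and CCAAT on either strand, written as TTCAAA and ATTGG where the match is on the other strand.
KIF4A: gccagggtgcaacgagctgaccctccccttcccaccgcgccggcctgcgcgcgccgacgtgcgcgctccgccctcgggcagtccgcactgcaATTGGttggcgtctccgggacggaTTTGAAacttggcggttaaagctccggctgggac
CDCA8: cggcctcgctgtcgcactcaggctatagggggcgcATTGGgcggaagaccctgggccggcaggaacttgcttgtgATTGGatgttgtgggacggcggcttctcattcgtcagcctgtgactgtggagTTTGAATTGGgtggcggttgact
KIF20A: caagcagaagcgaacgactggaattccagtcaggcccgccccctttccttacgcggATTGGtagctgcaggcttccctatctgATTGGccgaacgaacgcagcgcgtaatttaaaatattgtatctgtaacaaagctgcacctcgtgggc
EVI5: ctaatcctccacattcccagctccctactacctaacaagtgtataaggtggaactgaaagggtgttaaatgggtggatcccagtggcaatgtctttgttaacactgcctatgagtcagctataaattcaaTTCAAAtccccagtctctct
In KIF4A, TTTGAA began 34 bases before the start and the CCAAT match 58 bases before it. CDCA8 held 3 CCAAT matches, 115, 75 and 18 bases before the start, the last overlapping by 1 base the TTTGAA that began 23 bases before it. KIF20A held CCAAT matches 94 and 67 bases before the start and no TTTGAA in the printed stretch, and EVI5 held a TTTGAA match 20 bases before the start and no CCAAT.

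Over the window from 250 bases before to 50 after the start, 41 of the 47 members had an entry in the promoter table, and AURKA, BUB3, TTK, UBE2C, BIRC5 and TPX2 had none. TTTGAA, on either strand, was present in 31 of the 41 windows (75.6%), against 15.4% of the 27305 genes with a window and 9.81% of the 11514 genes tested that matched. CCAAT was present in 34 of the 41 (82.9%), against 35.7% of all windows and 36.1% of those of tested genes. Both motifs stood together in 26 of the 41 windows (63.4%), against 6.08% of all windows. A match describes these letters in this window and is not a measurement of binding.

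The first comparison set High against Low cells of the MNNG tumors. The mitosis genes were lower in High cells: 26 of the 47 were called lower and 0 higher, while 15.5% of all tested genes were called lower and 10.6% higher. The largest differences among the called members were those of EVI5, KIF23, KIF15 and NEK2, each between 1.89-fold and 2.0-fold lower. The median over the 47 was -0.60, against -0.19 over all tested genes, and 44 of the 47 lay below 0. Tested genes of like signal also lay mostly below 0, as given further below. For 29 members, all High arrays lay below all Low arrays, and for 0 members above (19.4% and 10.4% of all genes). Without the lung arrays in the fit 35 members were called lower, and with the tumor as a block in that fit 40 were, with 0 higher in both. The shares of all tested genes above belong to the first fit, so these larger counts have no such share beside them. A sorted population is measured in bulk here, so fewer cells in mitosis and less of each RNA per cell cannot be told apart.

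**Figure D1:**
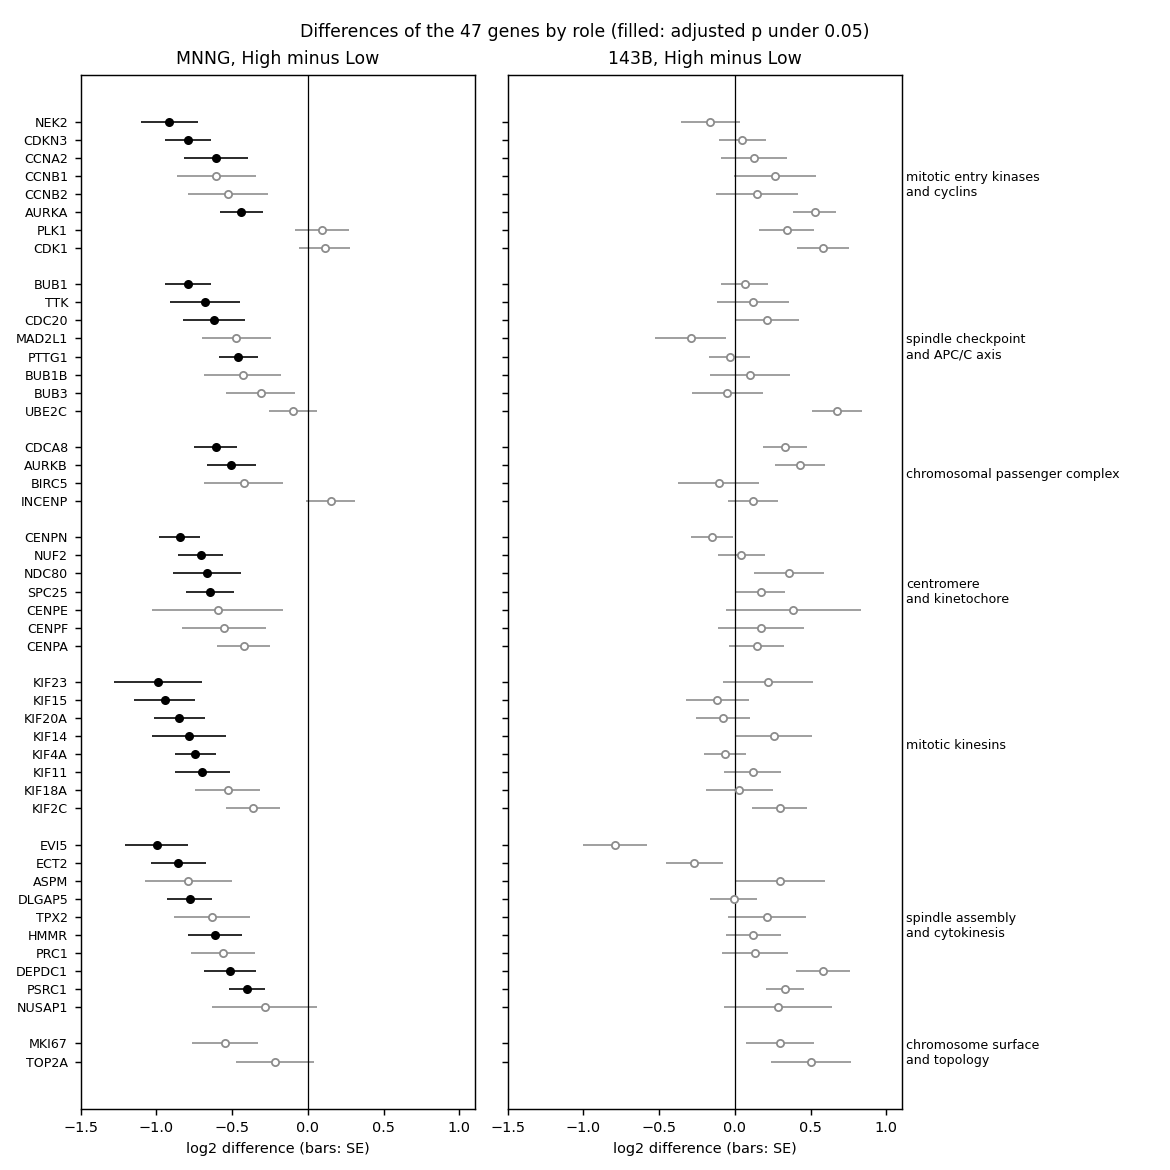
Log2 High minus Low difference (horizontal axis; bars are the standard error) of each of the 47 genes, grouped by role from top to bottom, in MNNG on the left and 143B on the right; filled points have an adjusted p under 0.05. In MNNG 26 genes are filled, all to the left of 0, while in 143B none is filled and 35 of the 47 points lie to the right of 0.

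Of the 8 entry kinases and cyclins, 4 were called lower in MNNG High, with a group median of -0.57. CDKN3, a phosphatase that removes the activating phosphate from cyclin-dependent kinases, had signals of 9.45, 9.71, 9.28 and 9.52 in High cells of the 4 tumors, against 10.28, 10.28, 10.30 and 10.27 in Low cells. All 4 High arrays lay below the Low arrays, which were almost equal to each other, and the difference was -0.79 ± 0.15 (1.73-fold lower, adjusted p = 0.00435). NEK2, a kinase that separates the centrosomes, had 6.79, 6.60, 6.19 and 6.84 in High cells and 7.66, 7.33, 7.62 and 7.47 in Low cells. The groups did not overlap, and NEK2 was 1.89-fold lower in High (-0.92 ± 0.19, adjusted p = 0.00554). Cyclin A2 (CCNA2, -0.61 ± 0.21, adjusted p = 0.0425) and AURKA, the Aurora kinase of the spindle poles (-0.44 ± 0.14, adjusted p = 0.0316), were also called lower. The other bright probe set of AURKA gave -0.32 and was not called (adjusted p = 0.1025). The mitotic cyclins CCNB1 (-0.60 ± 0.26) and CCNB2 (-0.53 ± 0.26) had adjusted p of 0.0898 and 0.13, while another probe set of CCNB1 was called lower (-0.65, adjusted p = 0.0152). The 2 kinases at the head of the pathway stood apart in this group. CDK1 had 9.96, 9.92, 9.91 and 10.22 in High cells and 9.81, 9.66, 10.02 and 10.10 in Low cells, which overlapped, with a difference of 0.11 (95% interval -0.24 to 0.46). PLK1, the Polo kinase, had a difference of 0.09 (95% interval -0.28 to 0.47), with signals of 5.82 to 6.52 in High and 5.80 to 6.26 in Low, near the filter value.

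The spindle checkpoint and APC/C axis held 4 members called lower and none called higher. BUB1, a checkpoint kinase of the kinetochore, had 7.27, 7.02, 6.59 and 6.90 in High cells and 7.95, 7.49, 7.90 and 7.62 in Low cells. The groups did not overlap (-0.79 ± 0.15, 1.73-fold lower, adjusted p = 0.00435). Securin (PTTG1), which keeps separase inactive until anaphase, had 11.79, 11.32, 11.37 and 11.46 in High cells and 12.19, 11.67, 12.02 and 11.89 in Low cells. Only the High array of tumor MNNG-1231 reached into the Low range, and the difference was -0.46 ± 0.13 (1.37-fold lower, adjusted p = 0.0208). TTK, the kinase that starts the checkpoint (-0.68 ± 0.23, adjusted p = 0.0391), and CDC20, the APC/C activator it restrains (-0.62 ± 0.20, adjusted p = 0.0366), were called lower too. MAD2L1 (-0.47), BUB1B (-0.43) and BUB3 (-0.31), which inhibit CDC20 together in the mitotic checkpoint complex, were not called, although a dimmer probe set of MAD2L1 was (-0.89, adjusted p = 0.0234). UBE2C, the ubiquitin-conjugating enzyme of the APC/C, had 11.29, 11.04, 10.85 and 11.18 in High cells and 11.42, 11.06, 11.11 and 11.16 in Low cells. The ranges overlapped, with 2 High arrays below all Low arrays, and the difference was -0.10 (95% interval -0.43 to 0.24).

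In the chromosomal passenger complex, which corrects faulty attachments and guides cytokinesis, CDCA8 and AURKB were called lower. CDCA8 (borealin) had 7.51, 7.48, 7.24 and 7.34 in High cells and 8.23, 7.88, 7.92 and 7.99 in Low cells, without overlap (-0.61 ± 0.14, 1.53-fold lower, adjusted p = 0.00923). AURKB, the kinase of the complex, had 6.96, 6.73, 6.93 and 6.93 in High cells and 7.40, 7.27, 7.58 and 7.33 in Low cells. Here too the groups were separate (-0.51 ± 0.16, 1.42-fold lower, adjusted p = 0.0318). A dimmer probe set of AURKB gave 0.23 and was not called. BIRC5 (survivin) had a difference of -0.43 ± 0.26 and was not called, while 2 of its 3 dimmer probe sets were called lower (-0.58 and -0.73). The scaffold subunit INCENP was among the 3 members above 0, at 0.15 (95% interval -0.19 to 0.49). Its signals were near the filter value, at 5.07 to 5.84 in High and 5.23 to 5.56 in Low. All tested genes with a mean signal up to 6 had a median difference of 0.28.

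Among the centromere and kinetochore genes, 4 of 7 were called lower. CENPN, which binds the centromeric nucleosome, had the smallest p of the 47 genes: 9.71, 9.71, 9.28 and 9.76 in High cells and 10.74, 10.44, 10.17 and 10.49 in Low cells. The groups did not overlap, and CENPN was 1.80-fold lower in High (-0.85 ± 0.13, adjusted p = 0.00243). NUF2, a subunit of the NDC80 complex that grips microtubules, had 8.0, 8.13, 7.70 and 8.20 in High cells and 8.78, 8.53, 8.82 and 8.72 in Low cells. All High arrays were lower than all Low arrays (-0.71 ± 0.15, 1.63-fold lower, adjusted p = 0.00619). The other 2 measured subunits of that complex, NDC80 (-0.67 ± 0.22, adjusted p = 0.0387) and SPC25 (-0.65 ± 0.16, adjusted p = 0.0112), were called as well. The centromeric histone CENPA (-0.42), the kinesin CENPE (-0.60) and CENPF (-0.55) were not called. CENPE had the widest error of the members, 0.43, with 5.16 on the High array of tumor MNNG-1233 and 7.15 to 7.83 on the other 3.

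The mitotic kinesins had the lowest median of the 7 groups, -0.76, and 6 of 8 were called lower. KIF4A, a chromosome-bound motor of the central spindle, had 7.20, 6.78, 7.02 and 7.11 in High cells and 7.99, 7.50, 7.84 and 7.76 in Low cells. There was no overlap (-0.74 ± 0.14, 1.67-fold lower, adjusted p = 0.00394). KIF20A, which brings mitotic kinases to the midzone, had 7.80, 7.54, 7.53 and 7.64 in High cells and 8.68, 8.11, 8.58 and 8.53 in Low cells, again separate (-0.85 ± 0.17, 1.80-fold lower, adjusted p = 0.0051). The spindle-sliding motors KIF11 (-0.70 ± 0.18, adjusted p = 0.0148) and KIF15 (-0.95 ± 0.20, adjusted p = 0.00643) were called together with the cytokinesis motors KIF14 (-0.78 ± 0.24, adjusted p = 0.0286) and KIF23 (-0.99 ± 0.29, adjusted p = 0.0227). The microtubule-end regulators KIF18A (-0.53) and KIF2C (-0.36) were not called.

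In the spindle assembly and cytokinesis group, 6 of 10 were called lower. EVI5, a protein of centrosomes and the midbody that has also been described to keep the APC/C inhibitor EMI1 stable, had 8.14, 8.49, 8.09 and 9.30 in High cells and 9.44, 9.49, 9.45 and 9.61 in Low cells. The High array of tumor MNNG-1235 lay just under the Low arrays and the other 3 well below them. EVI5 was 2.0-fold lower in High (-1.0 ± 0.21, adjusted p = 0.00582). DLGAP5, which stabilizes the fibers between spindle and kinetochore, had 8.87, 8.95, 8.42 and 9.10 in High cells and 9.72, 9.48, 9.64 and 9.62 in Low cells. The groups were separate (-0.78 ± 0.15, 1.72-fold lower, adjusted p = 0.00441). ECT2, the exchange factor that sets the cleavage plane (-0.86 ± 0.18, adjusted p = 0.00641), HMMR, a spindle-pole protein (-0.61 ± 0.18, adjusted p = 0.0217), DEPDC1 (-0.51 ± 0.17, adjusted p = 0.0386) and PSRC1, a spindle protein (-0.40 ± 0.12, adjusted p = 0.0249), completed the calls. The spindle-pole protein ASPM had a difference of -0.79 ± 0.29 and an adjusted p of 0.0506, just past the threshold. PRC1, the microtubule bundler of the midzone (-0.56), TPX2, the activator of AURKA (-0.63), and NUSAP1 (-0.29) were not called either.

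Neither gene of the chromosome surface and topology was called by its brightest probe set. MKI67, the proliferation antigen that coats mitotic chromosomes, had 7.82, 7.16, 7.00 and 7.17 in High cells and 8.0, 7.58, 8.01 and 7.75 in Low cells. The ranges overlapped through tumor MNNG-1231 (-0.55 ± 0.22, adjusted p = 0.0679). Of its 3 dimmer probe sets, 2 were called lower (-0.85 and -0.50, adjusted p = 0.00364 and 0.0362). TOP2A, the topoisomerase that untangles sister chromatids, had 9.53, 9.66, 8.59 and 9.70 in High cells and 9.51, 9.81, 9.35 and 9.67 in Low cells. Only tumor MNNG-1233 was clearly lower, and the difference of -0.22 ± 0.26 turned to 0.08 after a repeated quantile normalization.

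**Figure D2:**
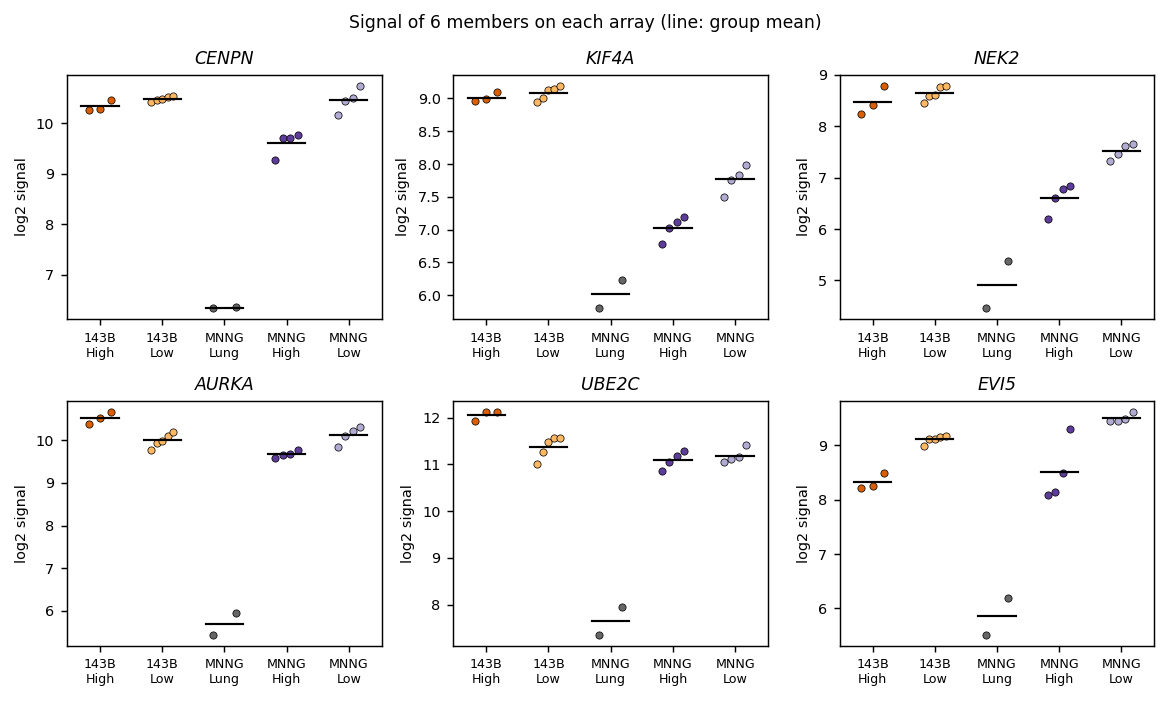
Log2 signal on each array (points) and group mean (line) of CENPN, KIF4A, NEK2, AURKA, UBE2C and EVI5 in the groups 143B High, 143B Low, MNNG lung, MNNG High and MNNG Low. EVI5 is lower in High than in Low in both lines, CENPN, KIF4A and NEK2 have separate High and Low arrays in MNNG only, and AURKA lies lower in MNNG High and higher in 143B High.

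The size of the MNNG count depended on the arrays and on the scaling, though every call in every setting run was toward lower signal in High. Leaving out 1 array at a time gave 14 to 29 calls: 15 without Low MNNG-1231, 14 without Low MNNG-1233, 17 without High MNNG-1233 and 17 without Low MNNG-1235. A repeated quantile normalization, which took the median of all tested genes to 0.01, left 5 calls (CENPN, DLGAP5, ECT2, KIF15 and NEK2) and a member median of -0.30. Subtracting each array's median took the median of all genes to -0.30 and gave 33 calls with a member median of -0.71. The level of the hybridization controls, spiked in at a fixed amount, was 11.8 to 13.2 in MNNG High and 11.2 to 11.3 in MNNG Low. With that level as a covariate, 0 members were called by limma, 18 had an unadjusted p under 0.05, and the member median was -0.32. With the GAPDH 3′ minus 5′ signal, a measure of RNA quality, as a covariate there were 15 calls, and without the High arrays of tumors MNNG-1231 and MNNG-1233 together there were 3 (BUB1, CENPN and KIF4A). The labels carry a date tag that 3 of the 4 MNNG Low arrays do not share with MNNG High. Within the shared tag (4 High arrays and 1 Low array) the member median was -0.78, 0 members were called by limma and 24 had an unadjusted p under 0.05. That fit takes the lone Low array to vary like the arrays of the other groups, so its count of calls says little.

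**Figure D3:**
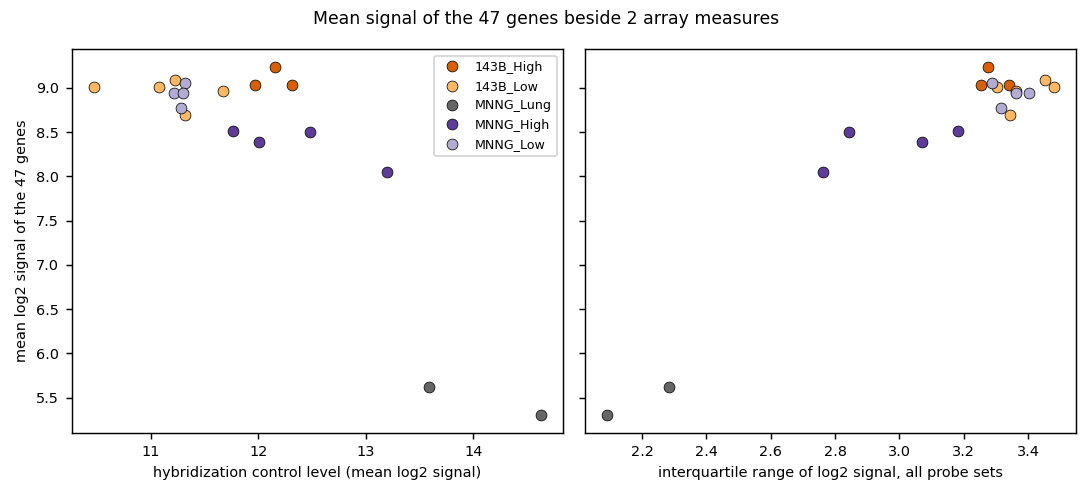
Mean log2 signal of the 47 genes on each array (vertical axis) beside the mean signal of the hybridization controls (left) and the interquartile range of all log2 signals on that array (right), coloured by group. The MNNG High arrays lie below MNNG Low in gene mean and in interquartile range and above it in control level, and the 2 lung arrays lie at the far end of both axes.

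Genes with a mean signal like that of the mitosis genes were also lower in MNNG High. For tested genes with a mean signal between 8 and 9, the median difference was -0.38, and the 8 members in that range had a median of -0.68. Between 9 and 10 it was -0.36 over all genes and -0.57 over the 14 members. Between 7 and 8 it was -0.31 and -0.61 over 13 members. From 7 to 8, 8 to 9 and 9 to 10, 78%, 90.1% and 90.6% of all tested genes lay below 0. Called lower in these ranges were 23.3%, 28.4% and 23.7% of all genes. Of the members there, 9 of 13, 6 of 8 and 7 of 14 were called lower. On each MNNG High array the 47 genes averaged 8.05 to 8.51, against 8.77 to 9.06 on the MNNG Low arrays. On average the macrophage markers moved the other way. Their 12 measured genes averaged 5.81 to 6.26 in MNNG High and 5.29 to 5.43 in MNNG Low. Of the 7 that passed the filter, 4 were called higher (AIF1 by 2.34 and SPI1 by 1.65). LAPTM5, the brightest of them in MNNG Low, had a lower mean in High (9.72 against 10.12). FCER1G had a mean above the filter value in MNNG High and lung only. CD163, TYROBP, C1QB, C1QC and PTPRC did not pass the filter, with means below its value in all bone groups. In lung their means were 5.76 to 6.02, above it. All 3 skeletal muscle genes that passed the filter were called higher, where 10.6% of all tested genes were. Dim genes rose in general: the 3536 tested genes with a mean signal up to 6 had a median difference of 0.28. Of these, 23.4% lay below 0. The muscle genes ACTN3 and DES were at 5.28 in MNNG Low. In the other lists 1 of 4 osteoclast markers (ATP6V0D2, by 1.95), 1 of 3 endothelial ones (PECAM1, by 0.52) and 1 of 3 erythroid ones (SLC4A1, by 0.58) were called higher and none lower. Of 6 lung epithelium genes, LAMP3 and SFTPC were called higher (by 0.64 and 0.39) and EPCAM lower (-0.71). LAMP3 had means below the filter value in both MNNG High and MNNG Low (4.93 and 4.29). The part of these other cells, and of array quality, in the lower mitosis signals was not tested.

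The 4 MNNG tumors shared the direction and differed in size. In the 4 MNNG tumors the median High minus Low difference over the 47 genes was -0.57, -0.41, -0.90 and -0.43, against -0.28, -0.07, -0.25 and -0.07 over all tested genes. The number of members below 0 was 43, 45, 45 and 43. In all 4 tumors, 41 of the 47 members were lower in High, as were 41.8% of all tested genes. The lowest member was EVI5 in tumor MNNG-1231 (-1.30) and in tumor MNNG-1232 (-1.01), KIF23 in tumor MNNG-1233 (-2.03) and KIF15 in tumor MNNG-1235 (-0.92). The highest was INCENP in tumors MNNG-1231, MNNG-1233 and MNNG-1235 (0.24, 0.39 and 0.15) and PLK1 in tumor MNNG-1232 (0.46). INCENP and PLK1 had signals near the filter value, as given above.

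**Figure D4:**
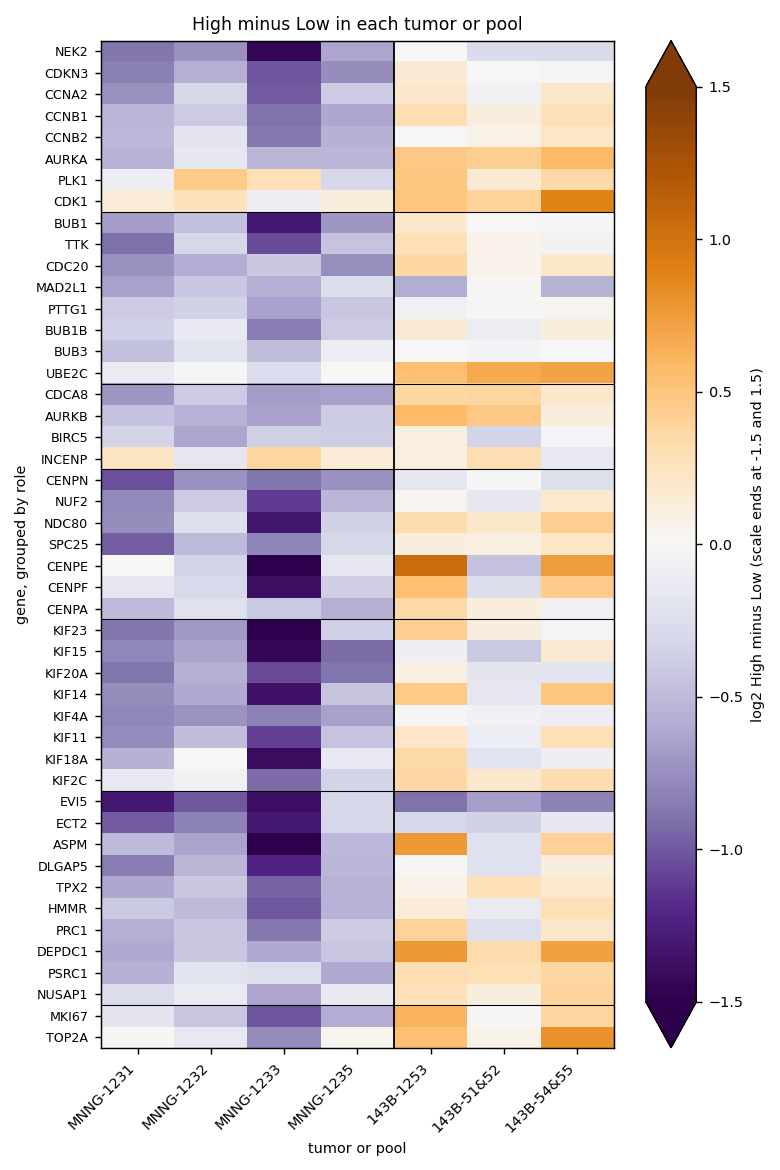
Log2 High minus Low difference of each of the 47 genes (rows, grouped by role) in each of the 4 MNNG tumors and in the 143B tumor and 2 pools (columns); purple is lower and orange higher in High, and the scale ends at -1.5 and 1.5. The MNNG columns are mostly purple, most deeply in tumor MNNG-1233, and EVI5 is purple in all 7 columns.

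High cells of the 143B tumors were set against 143B Low cells in the same way. No mitosis gene was called: 0 of 47 lower and 0 higher by limma, with 0% of all tested genes called lower and 0.00694% (1 gene) higher. At an unadjusted p under 0.05 there were 8 members and 745 genes in all. Most members nevertheless had a higher mean in High, 35 of 47, with a median of 0.14 against -0.02 over all tested genes. All High arrays lay above all Low arrays for 6 members (CDK1, PLK1, AURKA, UBE2C, CDCA8 and PSRC1) and below them for 1 (EVI5), against 5.34% and 6.53% of all genes. Other measures were separate between these groups as well. The macrophage markers averaged 5.06 to 5.36 in 143B High and 4.75 to 4.94 in 143B Low, with AIF1 at a mean of 8.48 in High and 7.24 in Low and SPI1 at 6.78 in High and 5.78 in Low, and none of the 7 that passed the filter was called. The hybridization control level was 11.96 to 12.31 in 143B High and 10.47 to 11.67 in 143B Low, and with that level as a term the member median was 0.34. The part of the macrophage markers in the 143B values was not tested.

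UBE2C had 12.11, 11.92 and 12.12 in 143B High (tumor 143B-1253, pools 51&52 and 54&55), against 11.005, 11.48, 11.57, 11.55 and 11.26 in 143B Low (tumors 143B-1251 to 143B-1255). The 3 High arrays were the highest, with a difference of 0.68 ± 0.16 (1.60-fold, 95% interval 0.33 to 1.02, adjusted p = 0.445). AURKA had 10.67, 10.38 and 10.52 in High and 9.93, 9.99, 10.19, 10.10 and 9.78 in Low, without overlap (0.53 ± 0.14, adjusted p = 0.577). The probe set of AURKA outside the _s_at and _x_at types, with a mean signal of only 5.19, gave -0.29. Its other bright probe set gave 0.38. CDK1 had 10.48, 10.57 and 10.79 in High and 10.06, 10.31, 9.98, 10.32 and 9.51 in Low, again separate (0.58 ± 0.17, adjusted p = 0.607). DEPDC1 had 9.32, 9.33 and 9.17 in High and 8.79, 9.20, 8.55, 8.6 and 8.31 in Low. Only Low 143B-1252 reached the High range (0.58 ± 0.18, adjusted p = 0.628). The 3 dimmer probe sets of DEPDC1 gave 0.11, -0.12 and 0.19, so the larger value rests on 1 probe set of 4.

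EVI5 went the other way and was the lowest member in the 143B tumor and in both pools. It had 8.22, 8.5 and 8.24 in High, against 9.15, 9.18, 9.12, 9.12 and 8.99 in Low. The groups were far apart compared with their spread, and the difference of -0.79 ± 0.21 was close to that in MNNG (1.73-fold lower, adjusted p = 0.577). When only the 2 143B groups were fitted, EVI5 was called (adjusted p = 0.0199). With array weights, EVI5 (adjusted p = 0.00619) was called lower and UBE2C (0.0152), AURKA (0.029) and DEPDC1 (0.0387) were called higher. How many of all tested genes were called in these further fits is not given. EVI5 was lower in High than in Low in all 7 tumors and pools, by 1.30, 1.01, 1.37 and 0.32 in the 4 MNNG tumors and by 0.90, 0.67 and 0.81 in tumor 143B-1253 and pools 51&52 and 54&55. It rests on 1 probe set, since the other 2 did not pass the filter.

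The remaining 143B values were smaller than their error allowed to call. In the passenger complex, AURKB had 8.73, 8.30 and 8.02 in High and 7.73, 7.91, 8.15, 7.95 and 7.85 in Low, overlapping through pool 54&55 (0.43 ± 0.17, adjusted p = 0.879). CDCA8 had 8.35, 8.17 and 8.04 in High and 7.71, 7.88, 8.0, 7.91 and 7.79 in Low, with the High arrays just above the Low ones (0.33 ± 0.15, adjusted p = 0.913). MAD2L1, the checkpoint protein that captures CDC20, had 10.68, 10.73 and 10.15 in High and 10.41, 11.01, 11.26, 10.74 and 10.64 in Low (-0.29 ± 0.23). It was among 12 members with a lower mean in High. NDC80 had 9.35, 9.14 and 8.89 in High and 8.72, 9.17, 9.03, 8.86 and 8.08 in Low (0.36 ± 0.23), and CENPN had 10.28, 10.46 and 10.25 in High and 10.43, 10.54, 10.45, 10.52 and 10.47 in Low (-0.15 ± 0.14). Both pairs of ranges overlapped. KIF2C, a microtubule depolymerase, had 9.34, 9.26 and 9.17 in High and 8.95, 9.18, 8.98, 9.10 and 8.61 in Low (0.30 ± 0.18). KIF14 had 8.57, 8.21 and 8.38 in High and 8.26, 8.49, 8.10, 8.32 and 7.46 in Low (0.26 ± 0.25). In both kinesins the lowest array was Low 143B-1255. MKI67 had 8.43, 8.24 and 8.23 in High and 8.14, 8.37, 7.82, 8.16 and 7.54 in Low (0.30 ± 0.23), and TOP2A had 10.47, 9.96 and 10.22 in High and 9.66, 10.14, 9.92, 9.77 and 9.08 in Low (0.50 ± 0.27). Their adjusted p were 0.999 and 0.985.

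The 143B median depended on single arrays. Without High 143B-1253 it was 0.07, without Low 143B-1255 it was 0.09, and without the High pool 54&55 it was 0.22. By tumor, the median over the members was 0.27 in tumor 143B-1253, with 37 members above 0, -0.01 in pool 51&52, with 23 above 0, and 0.19 in pool 54&55, with 31 above 0. In all 3 of these, 16 members were higher in High, against 19.8% of all tested genes. CENPE in tumor 143B-1253 (1.05), UBE2C in pool 51&52 (0.68) and CDK1 in pool 54&55 (0.88) were the highest members.

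**Figure D5:**
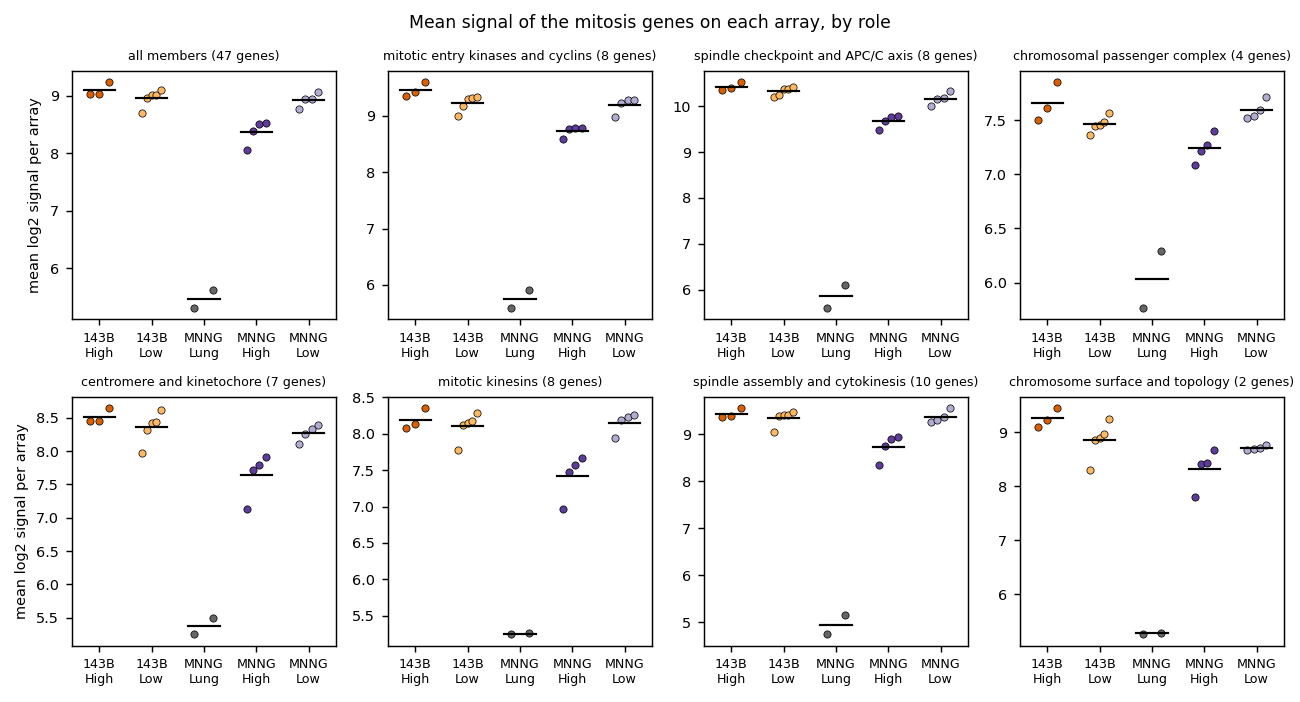
Mean log2 signal of all 47 genes and of each of the 7 role groups on each array (points), with the group mean (line), in 143B High, 143B Low, MNNG lung, MNNG High and MNNG Low; each panel has its own vertical scale. In MNNG High the mean over the 47 genes is 8.05 to 8.51, below all other bone arrays, and the 2 lung arrays lie far below these.

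Whether the High minus Low difference itself differed between the lines was tested as MNNG minus 143B. The difference was below 0 for 46 of 47 members, with a median of -0.75 against -0.15 over all tested genes, and 0 were called by limma (0% of all genes lower and 0.00694% higher). At an unadjusted p under 0.05 there were 33 of the 47 members and 1449 of all genes. With array weights 20 members were called, all below 0, but the number of all tested genes called in that fit is not given. AURKA had the smallest p, with a difference between the lines of -0.96 ± 0.20 (95% interval -1.39 to -0.54, adjusted p = 0.336), from -0.44 in MNNG and 0.53 in 143B. That value was 0.22 with the dim probe set outside the _s_at and _x_at types and -0.71 with the other bright one. CDCA8 had a difference between the lines of -0.94 ± 0.20 (adjusted p = 0.361), from -0.61 in MNNG and 0.33 in 143B.

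DEPDC1 and PSRC1 followed, both with an adjusted p of 0.435. DEPDC1 had 8.99, 8.81, 8.61 and 8.72 in MNNG High and 9.59, 9.23, 9.21 and 9.14 in MNNG Low, so it was separate downward there and higher on average in 143B High, for a difference between the lines of -1.10 ± 0.25. PSRC1 had 7.02, 7.15, 7.24 and 7.11 in MNNG High and 7.58, 7.35, 7.48 and 7.71 in MNNG Low. In 143B it had 9.19, 9.13 and 9.25 in High and 8.64, 9.02, 8.88, 9.03 and 8.73 in Low, so its groups were separate in opposite directions in the 2 lines (-0.73 ± 0.17). EVI5 differed little between the lines, at -0.21 (95% interval -0.83 to 0.42), and INCENP, at 0.03, was the only member not below 0.

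For 12 members, the High array was lower than its Low partner in all 4 MNNG tumors and the High array was higher in the 143B tumor and in both pools, a pattern found in 2.23% of all tested genes. These counts follow the signs alone and were not tested further.

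The 143B Low and MNNG Low cells were compared to describe the members in the bulk cells of each line. The mitosis genes as a group stood at like levels, with a median difference of 0.04 over the 47 against -0.04 over all tested genes, and 6 were called lower and 8 higher in 143B Low (14.5% and 14.4% of all genes). Line and date tag coincide here and cannot be told apart. PSRC1 was 2.52-fold higher in 143B Low, with 8.64 to 9.03 (median 8.88) against 7.35 to 7.71 in MNNG Low (1.33 ± 0.11, adjusted p = 5.63e-08). KIF4A had 9.19, 9.12, 9.01, 9.14 and 8.94 in 143B Low, all above the MNNG Low arrays given above (1.31 ± 0.13, 2.48-fold, adjusted p = 3.44e-07). NEK2 had 8.59, 8.77, 8.79, 8.61 and 8.46 in 143B Low, also far above MNNG Low (1.12 ± 0.18, 2.18-fold, adjusted p = 8.69e-05). BIRC5 was the opposite case, with 8.28, 8.10, 8.06, 8.16 and 8.30 in 143B Low, against 9.67, 9.70, 9.42 and 9.60 in MNNG Low (-1.42 ± 0.25, 2.67-fold lower, adjusted p = 0.000208).

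The other calls in this comparison were CENPF (0.98), ECT2 (0.54), INCENP (0.53), AURKB (0.52) and BUB1 (0.43) as higher in 143B Low, and ASPM (-1.42), KIF14 (-0.80), NUF2 (-0.60), DEPDC1 (-0.60) and KIF20A (-0.46) as lower. Members of every role group except the chromosome surface and topology were among them. The calls of the first fit, 6 lower and 8 higher of 47, were shares near the 14.5% and 14.4% of all tested genes. With only these 2 groups in the fit 24 members were called, and with array weights 26. The number of all tested genes called in these further fits is not given.

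In the lung arrays the mitosis genes were lower than in MNNG Low cells of bone by a wide margin: 44 were called lower and 2 higher, where 51.9% of all tested genes were lower and 35.1% higher. The member median was -3.65, against -0.64 over all genes. On the lung arrays the 47 genes averaged 5.62 (tumor MNNG-1233) and 5.30 (mixture), close to the filter value of 5.36, so most of these differences set a signal near the background against a clear signal. DLGAP5 had 3.79 and 3.92 in lung, against the 9.48 to 9.72 of MNNG Low (-5.76 ± 0.18, adjusted p = 9.93e-15). AURKA had 5.94 and 5.44 (-4.43 ± 0.17, adjusted p = 7.43e-14) and CENPN had 6.35 and 6.33 (-4.12 ± 0.16, adjusted p = 1.05e-13). Both lay far below every bone array. ECT2 had 4.13 and 4.40 in lung, against 9.88, 9.56, 9.51 and 9.64 in MNNG Low (-5.39 ± 0.22, adjusted p = 1.57e-13).

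INCENP and PLK1 were the 2 members called higher in lung. INCENP had 6.72 and 6.57 in lung, against 5.56, 5.24, 5.45 and 5.23 in MNNG Low (1.27 ± 0.20, adjusted p = 7.71e-06), and PLK1 had 6.5 and 7.32 in lung, against 6.26, 5.80, 6.22 and 6.13 (0.81 ± 0.22, adjusted p = 0.00216). Both have low signals on the bone arrays. Among the other members, for AURKA, AURKB, BUB1, BUB3, CCNB2 and CENPN a dimmer probe set was called higher in lung while the brightest was called lower. CENPA, at -0.30 ± 0.21, was the 1 member not called. The lung arrays had the highest control levels of all (13.6 and 14.6), an ACTB 3′ minus 5′ signal of -2.16 and -2.97 against 0.75 to 2.82 on the bone arrays, and macrophage markers averaging 6.73 and 6.81. Their part in the lung difference was not tested.

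The other probe sets of the members gave a check on the choice. In all, 84 probe sets of the 47 genes passed the filter and 22 genes had more than 1. In MNNG High against Low, 38 of the 84 were called lower and 0 higher, and within AURKB, BUB1, BUB3, CCNB2 and CENPN some probe sets differed in sign without a call in the other direction. For CENPN the 3 brighter probe sets gave -0.85, -0.60 and -0.44 and the dimmest gave 0.23. In 143B none of the 84 was called, and the sign differed within 9 genes, AURKA, DEPDC1, MAD2L1 and CENPN among them.

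Across the 16 bone arrays the members varied together within groups, but pairs of other genes were not examined for comparison. The Pearson correlation of their deviations from the group means had a median of 0.41 over the 1081 pairs of members, a description over arrays that share line, sort and scaling. NDC80, KIF2C and NEK2 followed the others most closely, with a mean correlation of 0.56, 0.55 and 0.54. CDC20 (-0.12), BIRC5 (0.01), INCENP (0.03) and PLK1 (0.05) followed them least.

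Further genes of the mitotic machinery, 113 in 8 lists chosen by function with earlier results known, were also counted in MNNG. Of the 106 that passed the filter, 40 were called lower and 5 higher in High, with a median of -0.46, beside 15.5% and 10.6% of all tested genes and their median of -0.19. In the inner and outer kinetochore 10 of 24 were called lower, among them MIS18A, which helps load CENPA (-0.63 ± 0.13, adjusted p = 0.0051), OIP5, its partner (-0.80 ± 0.17, adjusted p = 0.0066), and CENPL (-0.65 ± 0.15, adjusted p = 0.00833). Among spindle motors and microtubule proteins 8 of 15 were called lower, with CEP55, the abscission protein, at -0.64. Condensin had 4 of 8 lower, led by NCAPD2 (-0.87), and the checkpoint list had 4 of 7 lower, including MAD2L2 (-0.62) and MAD1L1 (-0.60), although MAD2L2 is best known for DNA damage tolerance.

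The APC/C, cohesin and the regulators of transcription had calls in both directions. The APC/C had 6 lower and 1 higher of 15, with CDC23 at -0.58 and FZR1, the activator used after mitosis, at 0.47 (adjusted p = 0.0203). Cohesin had 2 lower and 1 higher of 14: SMC1A at -0.76 and NIPBL, its loader, at 0.96 (adjusted p = 0.00674). The cohesin shares are no larger than those of all tested genes, 15.5% lower and 10.6% higher. The share of lower calls in the APC/C was larger than that of all tested genes. Among 13 regulators of G2 and M transcription, FOXM1 (-0.79 ± 0.15, adjusted p = 0.00435), NFYB (-0.78 ± 0.14, adjusted p = 0.00405), NFYA (-0.69) and RBL2 (-0.36) were lower. E2F4 (0.67), E2F1 (0.51) and LIN37 (0.44) of that list were higher. Of the 10 entry phosphatases and kinases, CDC25A (-0.46) and BORA (-0.65) were called lower, a share near the 15.5% of all tested genes.

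Outside mitosis, 13 of 27 S phase and replication genes were called lower in MNNG High and 0 higher, with a median of -0.46, again beside 15.5% and 10.6% of all tested genes, led by UHRF1 (-0.76), UNG (-0.48) and GMNN (-0.58). Of 13 cell cycle inhibitor and quiescence genes, RB1 was lower (-0.65) and BTG1 (0.72) and TOB1 (0.44) were higher, shares near those of all genes. No gene of any of these lists was called in 143B, where the medians were -0.01 over the 106 mitosis genes and -0.10 over the S phase genes.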

How the data were processed

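Total RNA of 18 sorted samples was hybridized to Affymetrix 3′ expression arrays after biotin labelling of 100 ng RNA, per the labels' protocols. The deposited values are log2 signals per probe set; RMA is the method that the submitters' processing notes name, with the version, annotation and settings not given in the sources used here. Of 54675 probe sets, 41097 are annotated to 1 gene, 1801 to several and 11777 to none, and 19735 of the 19775 genes matched the RefSeq table by Entrez ID. Genes were kept when their probe set reached 5.36, the median of all values, on at least 3 arrays.

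High, Low and lung samples were grouped by their labels, and 5 comparisons were tested with limma 3.58.1 in R 4.3.3, on 1 mean per group, with Benjamini-Hochberg adjustment over all genes tested. The steps were tested on simulated data. The number of arrays limits the precision. Values per array are given for the 2 members with the smallest p in each role group in the High against Low comparisons, and for the 4 with the smallest p in the other comparisons; CENPE, INCENP, PLK1, KIF23 and KIF15 were named besides, after their values were seen.

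The members, the lists and the tests were chosen with earlier results of these data known, in which EVI5, BUB1, DLGAP5, KIF20A, CDKN3, UBE2C, AURKA and CDK1 had been shown, so they give no independent support. High and Low samples with the same number come from the same tumor per the labels. The correlation of their deviations from the group means was 0.49, 0.37, 0.30 and 0.58 in the 4 MNNG tumors, in the order given above, and 0.54 in tumor 143B-1253; the 143B pools gave -0.19 and 0.53 with the tumors of 51&52, and 0.24 and 0.06 with those of 54&55, read as the tumors whose numbers end in these digits. Alternatives covered scaling, the filter, the arrays fitted, the tumor as a block, RNA quality, array weights and the choice of probe set. The hybridization control level as a covariate and leaving out 2 High arrays together were chosen after seeing the data. Promoter windows come from RefSeq on GRCh38.p14, the first listed per gene.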

Additional observations from a re-analysis of the deposited data

Results flagged for a closer look

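Within groups of 4 or 5 arrays, 78 sets of values of the named members were searched for an array far from the others. In 8 sets such an array was found, while chance gives about 5% of sets. Several of these sets share an array and the members vary together, so they are not 8 separate events. In MNNG High, the array of tumor MNNG-1233 was the low one for CENPN (9.28), NDC80 (7.21) and TOP2A (8.59). Tumor MNNG-1232 was low for AURKB (6.73), and tumor MNNG-1235 was high for CDK1 (10.22). In 143B Low, the array of tumor 143B-1255 was the low one for DLGAP5 (9.44), EVI5 (8.99) and NUF2 (7.64). High MNNG-1233 had the lowest interquartile range of the bone arrays (2.76), and Low 143B-1255 had the lowest mean of the 47 genes in its group (8.69). The part of these array measures in the low values was not tested.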

How the results depend on the processing

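The 26 members called lower in MNNG High became 5 after a repeated quantile normalization, 35 without the lung arrays, 40 with the tumor as a replicate block and also without them, 15 adjusted for the GAPDH 3′ minus 5′ signal, 0 within the shared date tag (1 Low array, taken to vary like the others), 0 adjusted for the hybridization control level, 3 without the High arrays of MNNG-1231 and MNNG-1233 together, and 14 to 29 when 1 array was left out at a time. Over the other settings the count was 20 of 35 to 35 of 47. Counts of all tested genes called in the settings of this section are not given. The member median was -0.30 after the repeated quantile normalization and -0.32 with the control level; the cause was not tested. In 143B the count of 0 became 1 with only its 2 groups fitted and 4 with array weights, and the median became 0.34 with the control level. The tumor block changed no call there. The difference between the lines had 0 calls except for 20 with array weights, and its median became -0.49 after the repeated quantile normalization. In 143B Low against MNNG Low the 14 calls became 24 with only these groups and 26 with array weights, and the median turned to -0.035 without _x_at and _s_at probe sets. The lung count of 46 was 35 of 35 to 47 over all settings, with 42 under the control level.

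Single members changed sign as follows. TOP2A in MNNG was 0.078 after the repeated quantile normalization, -0.33 to 0.043 when 1 array was left out at a time (above 0 without High MNNG-1233), 0.063 with the control level and 0.095 without both High arrays. In 143B, probe sets outside the _x_at and _s_at types gave AURKA -0.29, CENPN 0.16, DEPDC1 -0.12 and MAD2L1 0.059. The mean over probe sets gave CENPN 0.0485, and the control level gave CENPN 0.011 and MAD2L1 0.31. The probe set of AURKA outside those types, with a mean signal of 5.19, gave 0.22 between the lines and 1.31 in lung. Of 290 values for the 14 named members in MNNG, 225 kept direction and side of the threshold, 55 lost the call and 6 gained it. Arrays near the filter value limit what the lung values show.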
